A study of Drosophila melanogaster with 78 samples.

Results

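The genes ena, Pak and otk, whose proteins take part in guidance signalling of the growth cone, were followed across 18 groups of Drosophila melanogaster embryos. They were taken by their gene symbols on the array platform. Each has 1 probe set, 154185_at for ena, 153976_at for Pak and 143516_at for otk, so the 3 genes are 3 of the 13966 probe sets tested and 3 of the 10843 genes with a single name. RNA from whole embryos at stage 15, when the axon tracts of the nerve cord are forming, was hybridised to 78 Affymetrix arrays, and the series asks how gene expression differs among mutants and transgenics of axon guidance genes.

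Each of 6 groups, WT, slit.robo, UNC5, UC2x, URyf and URyf.mef, held 5 arrays, and the other 12 groups held 4. WT is the wild-type control. The groups slit, robo, comm and robo2 carry the names of axon guidance mutants, and slit.robo joins the names of the first and second of these. The groups slit/WT, robo/WT and comm/WT carry a mutant's name over WT, and the series states that dosage was varied without giving the dose of each group. UNC5 carries the name of a netrin receptor. The names UR, UR2, URyf, URyf.mef, UC, UC2x, robo12 and FRM are not spelled out in the labels and are kept as they stand. Alleles, drivers and the sorting of mutant embryos are not stated, so what each group models is known only as far as its name. The titles call the replicates biological and the descriptions call them technical, so the p-values may measure technical spread only. In whole-embryo RNA, fewer cells of a type and less RNA per cell cannot be told apart.

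Growth cones steer by turning receptor signals into local assembly or disassembly of actin. Enabled, the product of ena, binds actin filament ends and promotes their elongation, is a substrate and genetic antagonist of the Abl kinase, and binds the cytoplasmic domain of the Robo receptor. Pak is a kinase switched on by the GTPases Rac and Cdc42, and the adaptor Dock brings it to guidance receptors. Off-track, the product of otk, is a transmembrane protein with an inactive kinase domain that associates with plexin in semaphorin signalling and takes part in Wnt signalling.

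Array quality differed among groups. The median intensity of an array lay between 810.4 and 857.3, while the SD of all log2 intensities on an array averaged 1.703 in UC, 1.704 in robo12, 1.710 in URyf and 1.711 in WT, against 1.805 in URyf.mef. On 6 arrays, among them WT replicate 1 with an SD of 1.659, this SD lay more than 0.05 from the median of the group. The log2 difference between the 3′ and 5′ control probe sets on WT replicate 1 was 1.51 for GAPDH and 0.34 for actin. The other WT arrays lay between 1.70 and 1.86 for GAPDH and between 0.80 and 1.06 for actin. Both group means were lowest in UC, at 1.57 and 0.53, against 1.71 and 0.79 in WT. The part of these control differences in the results was not tested. The files give no detection calls. Averaged over all arrays, otk lay at percentile 10.8 of all probe sets, ena at 41.6 and Pak at 43.4, so otk was measured near the dim end of the array. Levels of different probe sets are not compared, since each probe set has its own response.

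All 3 genes varied among the 18 groups. The range of group means was 1.18 log2 units for ena, 1.09 for Pak and 1.18 for otk, against a median of 0.457 over all probe sets. The SD within groups was 0.189, 0.186 and 0.191, against a median of 0.109. The moderated F test over the 17 comparisons with WT gave F = 14.9 for ena (adjusted p = 7.7e-16), 15.5 for Pak (3.2e-16) and 15.2 for otk (5.2e-16), but 97.2% of all probe sets passed it. When the groups were ordered by level, none of the 17 neighbouring pairs differed for any of the 3 genes by limma, the lowest adjusted p being 0.091 for otk and 0.093 for ena.

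**Figure D1:**
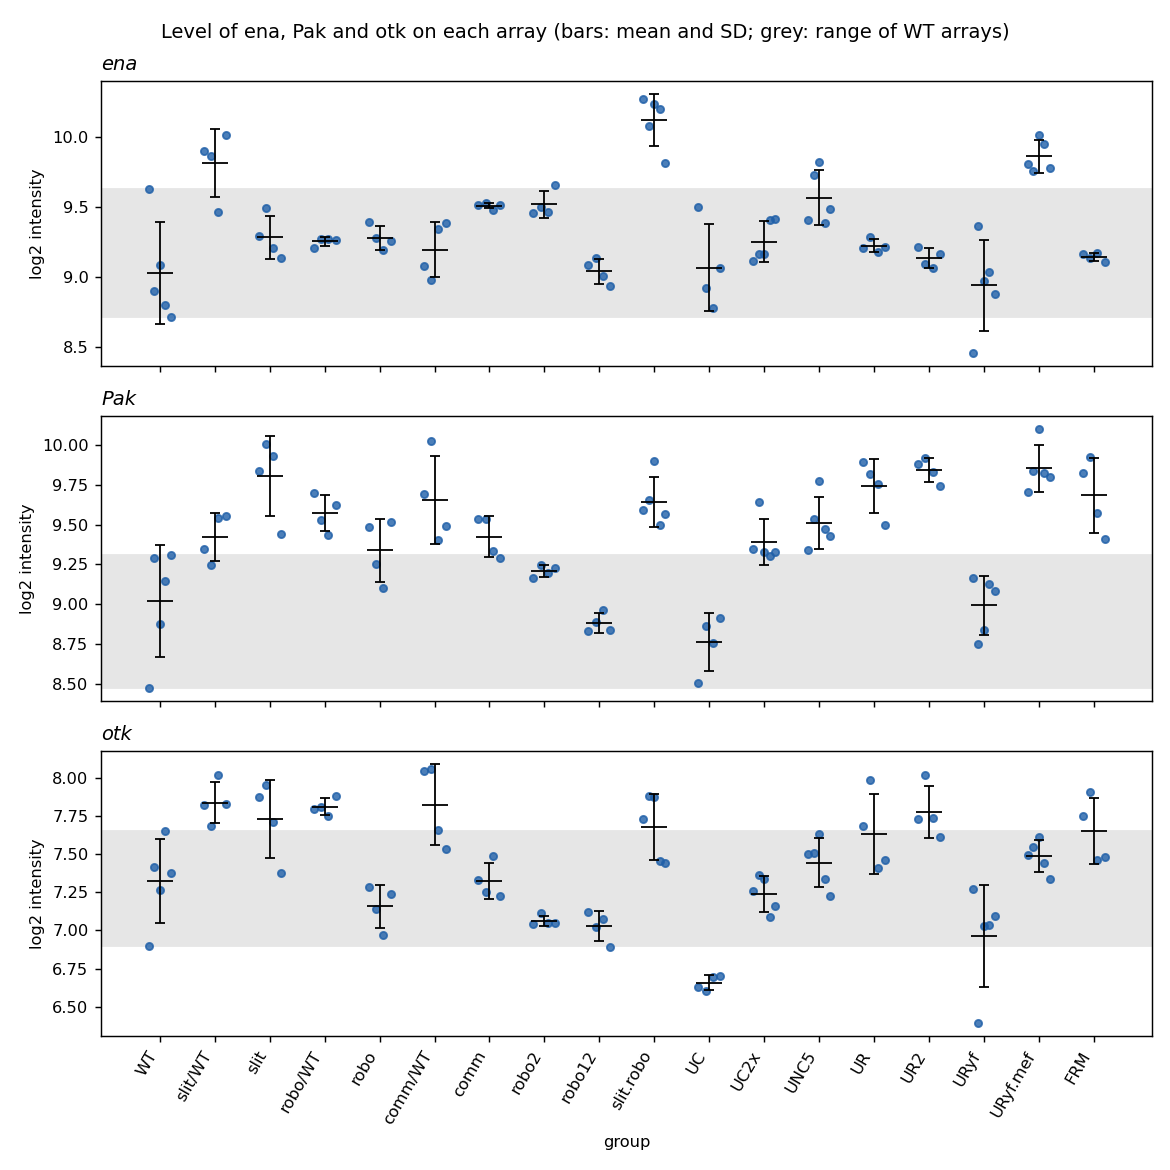
Log2 intensity (y axis) of ena, Pak and otk on each of 78 arrays in 18 groups (x axis), with the mean and SD of each group as bars and the range of the 5 WT arrays in grey. For ena, all arrays of slit.robo and URyf.mef lie above the grey band, for Pak all arrays of 9 groups do, and for otk all arrays of UC lie below it.

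Of the 3 genes, otk encodes the cell surface protein. Its mean level was highest in slit/WT (7.84 ± 0.14, SD, n = 4), comm/WT (7.82 ± 0.27) and robo/WT (7.81 ± 0.06), and lowest in UC (6.66 ± 0.05), URyf (6.97 ± 0.34, n = 5) and robo12 (7.03 ± 0.10). The WT arrays, in order of replicate, read 6.90, 7.41, 7.27, 7.65 and 7.37 on the log2 scale. Thus the 3 groups named with /WT headed the order, with WT (7.32 ± 0.28) in its lower part.

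The deepest change of otk was in UC, where the arrays read 6.63, 6.60, 6.70 and 6.70. All 4 lay below all 5 WT arrays, a separation downwards that 7.3% of all probe sets showed. The level fell by 0.66 ± 0.12 (SE) on the log2 scale, 1.58-fold, with an adjusted p of 1.3e-05 in a comparison where 27.8% of probe sets were called and 15.4% fell. In UC2x, whose arrays read 7.26, 7.37, 7.34, 7.09 and 7.16, otk was 0.58 ± 0.12 log2 higher than in UC (adjusted p = 3.5e-05) and all arrays lay above those of UC. In that comparison 69.1% of probe sets were called, and 24% lay wholly above. The mean SD of the arrays also differed, at 1.703 in UC and 1.797 in UC2x. With the array SD in the model otk was 0.13 higher in UC2x than in UC (adjusted p = 0.42). The fall of UC from WT was then 0.62 (adjusted p = 1.9e-07). UC and WT had nearly the same mean array SD, 1.703 and 1.711, so that model could change this fall only little.

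In slit/WT the otk arrays read 7.82, 7.69, 8.02 and 7.83, and in robo/WT they read 7.80, 7.81, 7.75 and 7.88. All 8 arrays lay above the highest WT array, a position upwards that 16.1% of probe sets held in slit/WT and 13.2% in robo/WT. The increases were 0.52 ± 0.12 (adjusted p = 0.00025) and 0.49 ± 0.12 (adjusted p = 9e-04), in comparisons that called 62.7% and 46.6% of probe sets, 25.2% and 20.6% upwards. In comm/WT the arrays read 8.04, 8.06, 7.66 and 7.53, of which the last lay within the WT range. The increase was 0.50 ± 0.12 (adjusted p = 0.00049, with 54.5% of probe sets called, 21.1% upwards). These 3 comparisons share the WT arrays, and with the array SD in the model none of the increases passed the threshold, at 0.10 (adjusted p = 0.54), 0.25 (0.051) and 0.22 (0.1).

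Over all 17 groups, otk rose in 8 and fell in 2 by limma, where the median probe set was called in 6. With the array SD in the model this balance turned, to 0 groups higher by limma (2 at an unadjusted p under 0.05) and 7 lower (robo, robo2, robo12, UC, UC2x, UNC5 and URyf, from -0.62 in UC to -0.26 in robo). A count of at least 10 was reached by 25% of all probe sets. The smaller increases were in UR2 (0.45, adjusted p = 0.0028), slit (0.41, 0.0068), slit.robo (0.36, 0.0076), FRM (0.33, 0.026) and UR (0.31, 0.042), in comparisons that called 37.7%, 40%, 57.1%, 40.8% and 33.2% of probe sets. Upward calls made up 16.6%, 15.8%, 21.2%, 17.4% and 14.4% of all probe sets in the same order. The other decrease was in URyf (-0.36, adjusted p = 0.035, with 9.78% of probe sets called, 5.01% lower). The call in UR2 held with any 1 array left out and was lost with the array SD in the model (0.20, adjusted p = 0.15). The others leaned on single arrays. Without WT replicate 1, the lowest of its group, the calls in slit (0.30), slit.robo (0.25), FRM (0.22) and UR (0.21) were lost, and robo2 (-0.37, adjusted p = 0.02) and robo12 (-0.40, 0.013) were called lower, which left 4 groups higher and 4 lower. In the full fit 25.6% of probe sets were called in robo2 and 18.6% in robo12. The call in UR was also lost without UR replicate 1 (0.30) or 2 (0.20) or WT replicate 3 (0.30), and that in FRM without FRM replicate 1 (0.30) or 2 (0.24). The call in URyf was lost without URyf replicate 2 (-0.21) or WT replicate 2 (-0.33), 4 (-0.27) or 5 (-0.34).

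Pak, the kinase, was above WT in most groups. Its highest means were in URyf.mef (9.85, n = 5), UR2 (9.84), slit (9.80 ± 0.25, n = 4) and UR (9.74). The lowest were in UC (8.76 ± 0.18, n = 4), robo12 (8.88 ± 0.06, n = 4), URyf (8.99, n = 5) and WT (9.02 ± 0.35, n = 5). The WT arrays read 8.48, 9.29, 8.88, 9.15 and 9.31, with replicate 1 the lowest.

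In UR2 the Pak arrays read 9.88, 9.92, 9.83 and 9.74, and in URyf.mef they read 9.71, 9.84, 10.10, 9.82 and 9.80. Every one of these arrays lay above all WT arrays. Pak rose by 0.82 ± 0.12 in UR2 (1.77-fold, adjusted p = 9.3e-08) and by 0.83 ± 0.11 in URyf.mef (1.78-fold, 6.3e-09), where 37.7% and 65% of probe sets were called, 16.6% and 24.3% upwards, and 12% and 15.3% lay wholly above WT. In slit the arrays read 9.83, 10.004, 9.93 and 9.44, all above WT, and the increase was 0.78 ± 0.12 (1.72-fold, adjusted p = 3.6e-07). In that comparison 40% of probe sets were called and 7.78% lay wholly above WT.

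The same held in 6 more groups, in which every Pak array lay above the WT arrays. The increases were 0.72 in UR, 0.66 in FRM, 0.63 in comm/WT, 0.62 in slit.robo, 0.55 in robo/WT and 0.49 in UNC5, with adjusted p between 1.9e-06 in UR and 3e-04 in UNC5. The share of probe sets called was 33.2%, 40.8%, 54.5%, 57.1%, 46.6% and 54.2% in the same order, with 21% upwards in UNC5, and 9.69%, 11.9%, 12.6%, 11.6%, 13.2% and 12.5% lay wholly above WT. The increases in slit/WT (0.40, adjusted p = 0.0029), comm (0.40, 0.0083) and UC2x (0.37, 0.0041) came with overlapping arrays. The comparisons of comm and UC2x called 27.4% and 58.9% of probe sets, 12.1% and 24.2% upwards. Pak thus rose in 12 of 17 groups and fell in none, although UC was lower at an unadjusted p under 0.05 (-0.26, adjusted p = 0.1). A count of 12 or more was reached by 12.8% of all probe sets.

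The reference arrays set part of this count for Pak. Without WT replicate 1 the WT mean moved to 9.16 ± 0.20 (n = 4), the calls in comm (0.27, adjusted p = 0.099) and UC2x (0.23, 0.068) were lost, and UC was called lower (-0.39, 0.0048). Against the mean of all other groups, 7 groups were higher and 4 lower. With the array SD in the model 7 groups remained higher, and slit/WT (0.00), comm (0.23), slit.robo (0.22), UC2x (-0.03) and UNC5 (0.09) no longer passed. The increases in slit, robo/WT, comm/WT, UR, UR2, URyf.mef and FRM passed in the planned settings that keep WT as the reference and with each array left out in turn. The robo group missed the threshold (0.32, adjusted p = 0.055, with 16.6% of probe sets called) and passed without WT replicate 2 (0.39), 4 (0.35) or 5 (0.39) or robo replicate 3 (0.40).

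The third gene, ena, was called in fewer groups in the full fit, an order that depended on WT replicate 1. Its mean was highest in slit.robo (10.12 ± 0.19, n = 5), URyf.mef (9.86 ± 0.12, n = 5) and slit/WT (9.81 ± 0.24, n = 4), and lowest in URyf (8.94 ± 0.33, n = 5), WT (9.03 ± 0.37, n = 5) and robo12 (9.04 ± 0.09, n = 4). The WT arrays read 9.63, 8.90, 9.09, 8.80 and 8.72. Replicate 1, the lowest WT array for Pak and otk, was the highest for ena.

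In slit.robo the ena arrays read 10.28, 10.08, 10.24, 10.20 and 9.81, all above every WT array. The increase was 1.10 ± 0.11 (2.14-fold, adjusted p = 1.1e-12), the largest change from WT of the 3 genes in any group, in a comparison that called 57.1% of probe sets and placed 11.6% wholly above WT. In URyf.mef they read 9.81, 9.76, 10.02, 9.95 and 9.78, again all above WT, and the increase was 0.84 ± 0.11 (1.79-fold, adjusted p = 9.3e-09). There 65% of probe sets were called and 15.3% lay wholly above WT.

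In slit/WT the ena arrays read 9.91, 9.87, 9.46 and 10.02, of which the third lay within the WT range. The increase was 0.79 ± 0.12 (1.72-fold, adjusted p = 1.7e-07, with 62.7% of probe sets called). Smaller increases were seen in UNC5 (0.54, adjusted p = 1e-04), robo2 (0.49, 0.0011) and comm (0.48, 0.0017), where 54.2%, 25.6% and 27.4% of probe sets were called, 21%, 11.8% and 12.1% upwards. The remaining 11 groups did not pass, with changes from -0.09 in URyf to 0.26 in slit. In all, 6 groups rose and none fell by limma, and none was lower at an unadjusted p under 0.05. The median probe set was called in as many over both directions, so the total count of ena calls lay at the background. By direction, the median over all probe sets was 1 group higher and 3 lower.

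That count moved with the reference. Without WT replicate 1 the WT mean of ena was 8.88 ± 0.16 (n = 4) and 12 groups were called higher. The 6 added were slit (0.41), robo (0.40), robo/WT (0.38), UC2x (0.38), UR (0.35) and comm/WT (0.32). Pak then had 11 groups called and otk 8, so ena had the most. In the model with the array SD, 10 groups were higher for ena, against 7 higher for Pak and 7 lower for otk. Against the mean of all other groups, 4 were higher and 3 lower for ena. The increases in slit.robo, URyf.mef, slit/WT and UNC5 passed in the planned settings that keep WT as the reference and with each array left out. Those in robo2 and comm missed in 1 setting, in which only the compared groups were fitted (adjusted p = 0.058 and 0.064).

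**Figure D2:**
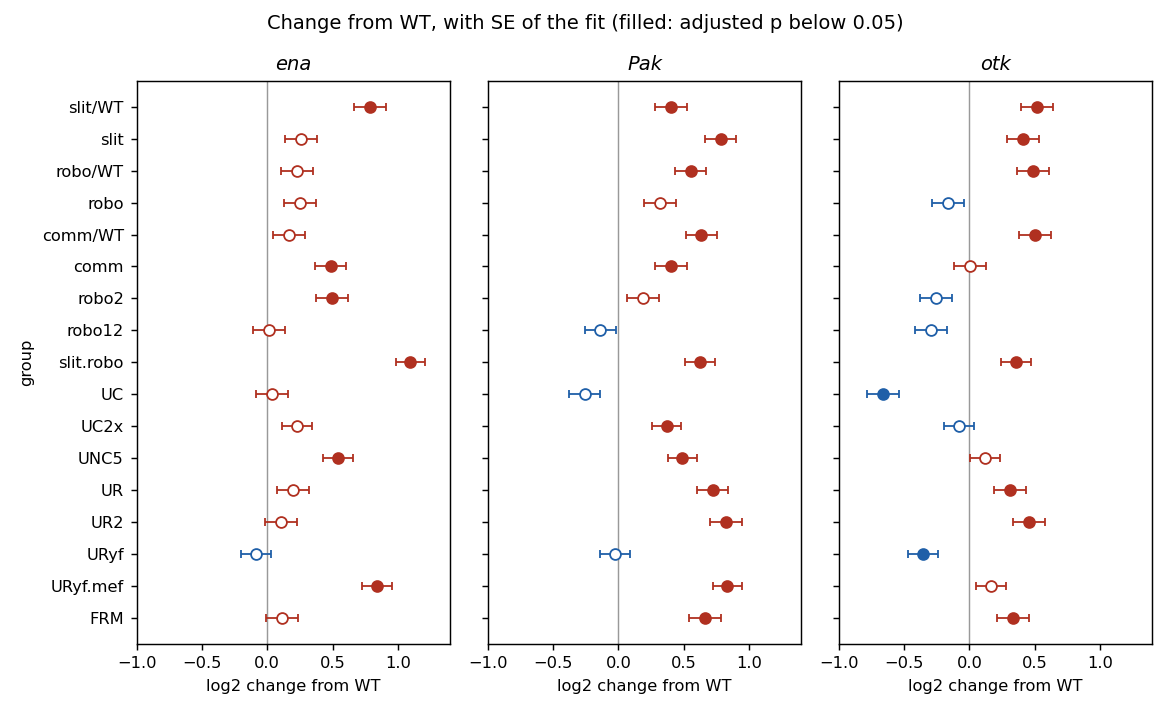
Log2 change from WT (x axis) of ena, Pak and otk in 17 groups (y axis), with the SE of the fit as bars. Filled points have an adjusted p below 0.05. Pak has 12 filled points, all to the right of 0, ena has 6 to the right, and otk has 8 to the right and 2 to the left, which became 0 and 7 with the array SD in the model.

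The comparison of each mutant group with its own /WT group does not use the WT arrays. The comparisons that passed were not the same for the 3 genes, though the genes were not tested against each other. In slit, ena was lower than in slit/WT and Pak was higher, whereas in robo and comm only otk passed the test, being lower than in robo/WT and comm/WT. Differences between the mutants were then tested themselves.

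The ena arrays read 9.29, 9.50, 9.21 and 9.14 in slit, against 9.91, 9.87, 9.46 and 10.02 in slit/WT. The highest slit array lay just above the lowest slit/WT array. The difference was -0.53 ± 0.13 (1.44-fold lower in slit, adjusted p = 0.0012), where 26.3% of probe sets were called and 12.6% were lower. It passed in all settings run, between -0.65 and -0.46. The corresponding difference of ena was 0.03 ± 0.13 between robo and robo/WT (95% interval -0.23 to 0.28, with 29.1% of probe sets called). Between comm (9.52, 9.53, 9.48 and 9.52) and comm/WT (9.08, 8.98, 9.34 and 9.39) it was 0.32 ± 0.13, and all comm arrays lay above those of comm/WT, as for 12.3% of probe sets. That difference did not pass (adjusted p = 0.067) and passed without comm/WT replicate 3 (0.36) or 4 (0.38).

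As a test of the difference itself, the slit pair differed from the comm pair by -0.85 ± 0.18 for ena (adjusted p = 0.00056, with 14.3% of probe sets called). Against the robo pair the difference was -0.56 ± 0.18 (adjusted p = 0.035, with 11% called). The first passed in every setting run. The second was lost when any 1 of 10 arrays was left out, namely robo replicates 1 and 2, robo/WT replicates 1 and 4, slit replicates 1, 3 and 4, and slit/WT replicates 1, 2 and 4, with values from -0.56 to -0.49 and adjusted p from 0.051 to 0.088.

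For otk it was the robo and comm pairs that differed. The robo arrays read 7.28, 7.14, 6.97 and 7.24, and the robo/WT arrays 7.80, 7.81, 7.75 and 7.88. The highest robo array, at 7.28, lay below the lowest robo/WT array, at 7.75, and 14.7% of probe sets lay wholly below in this way. The difference was -0.65 ± 0.13 (1.57-fold lower in robo, adjusted p = 7.6e-05, with 29.1% of probe sets called). In comm the arrays read 7.33, 7.25, 7.49 and 7.23, against 8.04, 8.06, 7.66 and 7.53 in comm/WT. Again all comm arrays lay below, as did those of 13.4% of probe sets, and the difference was -0.50 ± 0.13 (1.41-fold, adjusted p = 0.003, with 21.8% called). Both differences passed in all settings run, between -0.69 and -0.51 for robo and between -0.60 and -0.38 for comm.

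In slit, otk read 7.88, 7.95, 7.71 and 7.38, overlapping with slit/WT, and the difference was -0.11 ± 0.13 (95% interval -0.37 to 0.15). The slit pair differed from the robo pair by 0.54 ± 0.18 (adjusted p = 0.041), a call that was lost without any 1 of 11 of the 16 arrays. Against the comm pair the difference was 0.39 ± 0.18 (adjusted p = 0.15), and it passed without slit replicate 4 (0.51). Compared directly, otk was 0.57 ± 0.13 higher in slit than in robo (adjusted p = 0.00052, with 24% of probe sets called), and all slit arrays lay above all robo arrays, as for 9.64% of probe sets.

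The values of the slit and robo pair comparison without each of those 11 arrays lay between 0.47 and 0.55 for otk, with adjusted p from 0.052 to 0.11. The arrays were robo replicates 2 and 3, robo/WT replicates 1, 2 and 4, slit replicates 1, 2 and 3, and slit/WT replicates 1, 2 and 4.

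For Pak the slit arrays (9.83, 10.004, 9.93 and 9.44) were mostly above those of slit/WT (9.35, 9.25, 9.54 and 9.55). Slit replicate 4 lay among the slit/WT arrays. The difference was 0.38 ± 0.13 (adjusted p = 0.019) and was lost without slit replicate 2 (0.31) or 3 (0.34) or slit/WT replicate 1 (0.35) or 2 (0.32). Pak differed by -0.23 ± 0.13 in both robo (adjusted p = 0.15) and comm (0.18) against their /WT groups, and neither passed. The robo and comm pairs did not differ detectably for any of the 3 genes, in a test that called 2.57% of probe sets, with differences of -0.29 for ena, -0.00 for Pak and -0.15 for otk. The slit pair lay 0.61 ± 0.18 above the robo pair (adjusted p = 0.015) and 0.61 ± 0.18 above the comm pair (0.013). The first was lost without robo replicate 3 (0.54, adjusted p = 0.0503) and the second without comm/WT replicate 2 (0.49, 0.065).

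**Figure D3:**
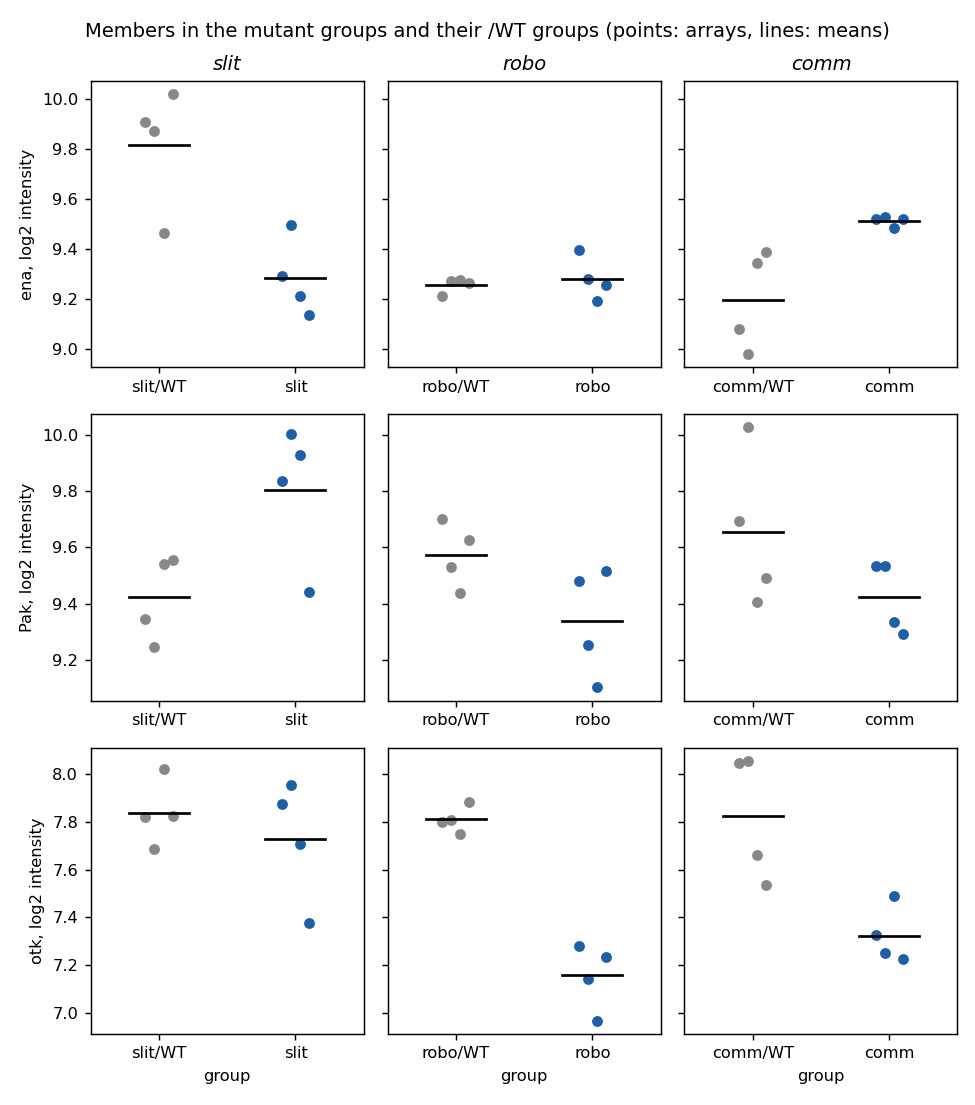
Log2 intensity (y axis) of ena, Pak and otk (rows) on each array of the slit, robo and comm groups and their /WT groups (x axis), with group means as lines. For otk all robo and comm arrays lie below those of the /WT groups, and for ena the mean of slit lies 0.53 below that of slit/WT.

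Other measures moved in the same comparisons. Of 7 measured neuron markers, none was higher and 3 were lower in slit than in slit/WT, with summed intensities of 10797 to 11718 in slit and 12753 to 13676 in slit/WT. Between robo and robo/WT 1 neuron marker was higher and 1 lower, with sums of 10296 to 10817 in robo and 10790 to 11439 in robo/WT, and between comm and comm/WT 1 was higher and none lower. Of 6 glia markers, 1 was higher and 3 were lower in robo than in robo/WT. In slit against slit/WT 1 was higher and 2 were lower, and in comm against comm/WT none was higher and 1 lower. The difference between the 3′ and 5′ probe sets of the GAPDH control was 2.19 in robo/WT and 1.83 in robo, 2.28 in comm/WT and 1.92 in comm, and 1.68 in slit/WT and 1.60 in slit. The comm/WT arrays with the highest otk, replicates 1 and 2, had the highest of these control differences in the group, at 2.80 and 2.75 against 1.81 and 1.78. Replicates 1 and 2 were also the highest of the comm/WT group for Pak (9.695 and 10.03) and the lowest for ena (9.08 and 8.98). The part of these measures in the results was not tested.

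The robo2 and robo12 groups differed for ena. All robo2 arrays of ena lay above those of robo, as for 7.31% of probe sets, but the difference of 0.24 did not pass (adjusted p = 0.26, with 9.32% called). The ena arrays read 9.46, 9.50, 9.46 and 9.66 in robo2 and 9.08, 9.13, 9.01 and 8.93 in robo12, so the groups did not overlap, as for 12.3% of probe sets in this direction. The difference was -0.48 ± 0.13 (adjusted p = 0.0048, with 16.8% called), and it passed in all settings run. Pak was lower in robo12 (8.83, 8.89, 8.97 and 8.84) than in robo (9.48, 9.25, 9.10 and 9.52), with no overlap. That difference was -0.46 ± 0.13 (adjusted p = 0.016, with 7.15% of probe sets called and 6.66% wholly below) and was lost without robo replicate 1 (-0.41) or 4 (-0.40) or robo12 replicate 1 (-0.44).

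The slit.robo group exceeded both the slit and the robo group for ena. The difference was 0.84 ± 0.12 from slit (adjusted p = 6.5e-08, with 17.2% of probe sets called) and 0.84 ± 0.12 from robo (2e-07, with 28.7% called). Every slit.robo array lay above every array of slit and robo, as for 8.88% and 8.17% of probe sets. For otk, slit.robo (7.68 ± 0.22, n = 5) was 0.52 ± 0.12 above robo (adjusted p = 0.0012) and did not differ detectably from slit (-0.05, 95% interval -0.30 to 0.19). With the array SD in the model the difference from robo was 0.20 (adjusted p = 0.24). Pak in slit.robo was -0.16 ± 0.12 from slit (adjusted p = 0.42) and 0.30 ± 0.12 from robo (0.046), and the latter was lost without robo replicate 2 (0.28) or 3 (0.23) or slit.robo replicate 1 (0.32), 2 (0.30) or 3 (0.24).

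URyf lay below UR, and URyf.mef above URyf. The Pak arrays read 9.89, 9.82, 9.75 and 9.50 in UR and 9.16, 8.75, 8.84, 9.13 and 9.09 in URyf. The otk arrays read 7.68, 7.98, 7.41 and 7.46 in UR and 7.27, 6.39, 7.03, 7.03 and 7.10 in URyf. For both genes all URyf arrays were the lower ones, as for 8.8% of probe sets. The differences were -0.75 ± 0.12 for Pak (1.68-fold, adjusted p = 1.8e-06) and -0.67 ± 0.12 for otk (1.59-fold, 2.7e-05), with 28.1% of probe sets called, and both passed in all settings run. For ena the difference was -0.28 ± 0.12 (adjusted p = 0.071), which passed without URyf replicate 2 (-0.39).

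Between URyf.mef and URyf all 3 genes were higher in URyf.mef. The differences were 0.92 ± 0.11 for ena (adjusted p = 7.4e-10), 0.86 ± 0.11 for Pak (3.3e-09) and 0.52 ± 0.12 for otk (0.00012), with no overlap of arrays for any of the 3. In this comparison 65.6% of probe sets were called and 14.4% lay wholly above. These groups had the highest mean array SD (1.805) and one of the 3 lowest (1.710). With the array SD in the model the differences were 1.14 for ena, 0.42 for Pak and 0.07 for otk (adjusted p = 0.76). Pak was also higher in UC2x than in UC, by 0.63 ± 0.12 (adjusted p = 6.6e-06, with no overlap, as for 24% of probe sets), and by 0.19 (0.21) with the array SD in the model.

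Across the related comparisons, 5 of 15 were called for ena, 7 for Pak and 7 for otk, against a median of 3 over all probe sets. The differences of slit and robo from comm (8.03% of probe sets called) and of UR2 and FRM from UR were not called for any of the 3 genes, in comparisons where 5.84% and 4.18% of probe sets were called.

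Over the 18 group means, Pak and otk varied together and ena varied less with either. Pearson's r was 0.84 for Pak and otk (Spearman correlation 0.74), 0.42 for ena and Pak (0.40) and 0.35 for ena and otk (0.38). Among all genes ranked by r with Pak, otk lay at percentile 98.3. Ranked by r with ena, Pak lay at percentile 85.5 and otk at 79.9. Within groups, over 78 arrays, r was 0.71 for Pak and otk, -0.33 for ena and Pak and -0.33 for ena and otk. The points share arrays, and with them the array SD. The 4 groups with the lowest mean array SD, UC, robo12, URyf and WT, were also the 4 lowest groups for ena and for Pak, and 3 of the 4 lowest for otk.

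**Figure D4:**
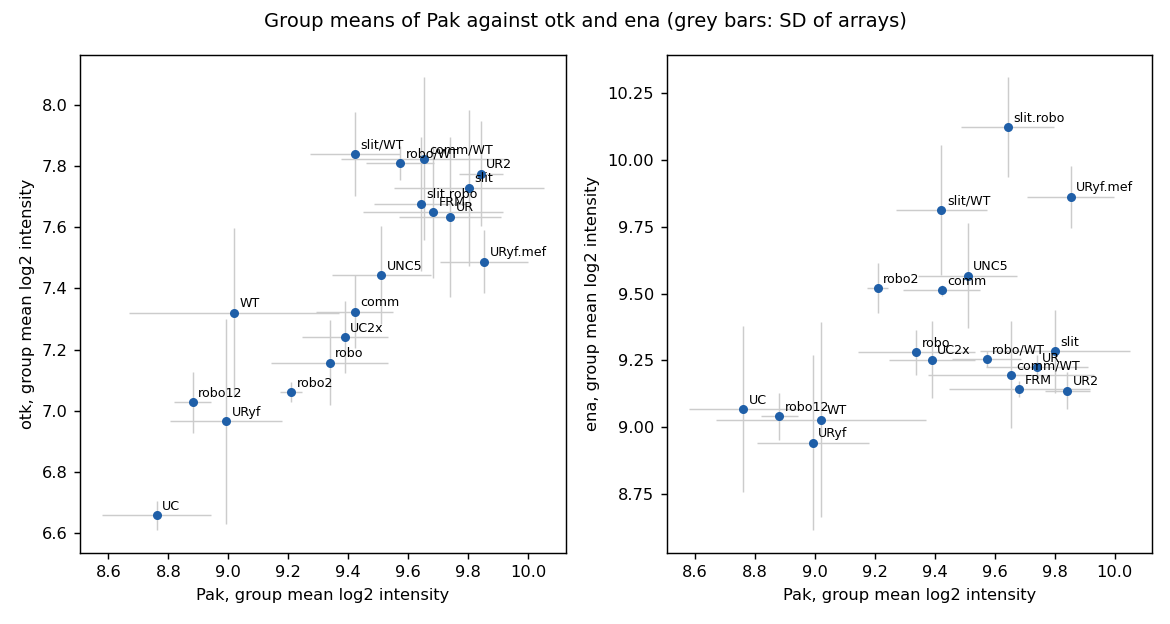
Group mean log2 intensity of Pak (x axis) against otk and ena (y axes) in 18 groups, with the SD of the arrays as grey bars. Pak and otk lie along a rising band (r = 0.84), while slit.robo and slit/WT stand high for ena at middling Pak.

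**Figure D5:**
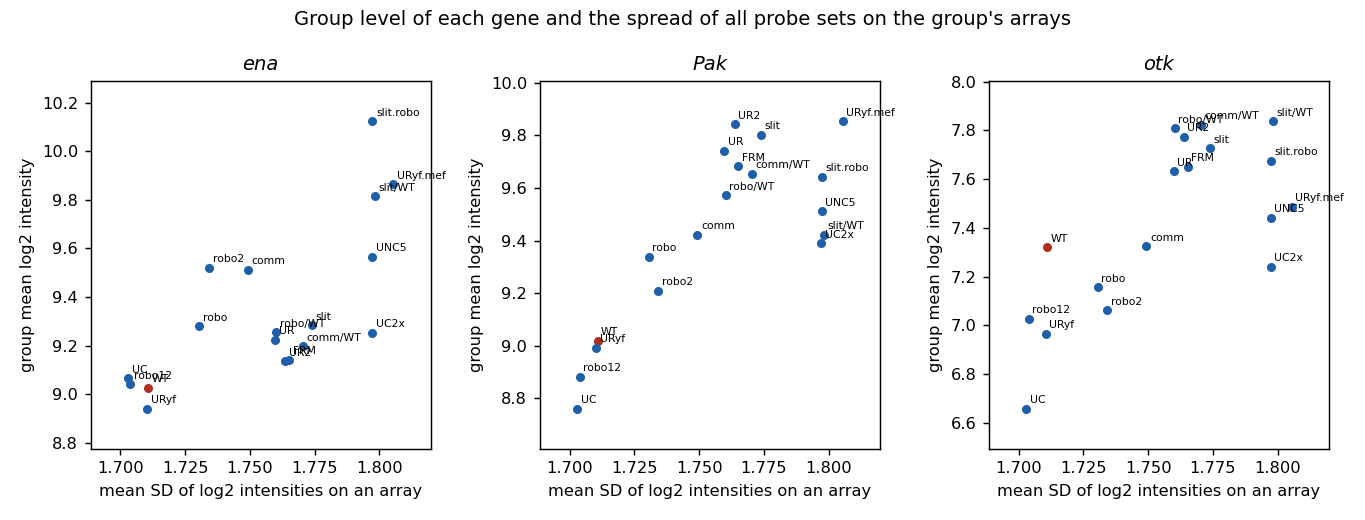
Group mean log2 intensity of ena, Pak and otk (y axes) against the mean SD of all log2 intensities on the arrays of the group (x axes), with WT in red. UC, robo12, URyf and WT form the low end of the x axis (1.703 to 1.711) and are the 4 lowest groups for ena and Pak, while for otk WT lies above 6 other groups.

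Among 10842 other genes, those whose 18 group means followed ena most closely were Usp47, which encodes a ubiquitin protease (Pearson 0.88, Spearman 0.87), Fs(2)Ket, an importin (0.88, 0.72), CG2926 (0.84, 0.63), P5CS, an enzyme of proline synthesis (0.83, 0.87), and fwd, a phosphatidylinositol kinase (0.83, 0.76). The most opposite were Pop1 (-0.86), CG18088 (-0.85) and Npc2h (-0.83). For Pak the closest were CG3164 (0.95), CG8176 (0.94), Isha (0.94), gw, a protein of microRNA silencing (0.94), and LanA, a laminin chain of the basement membrane (0.94), and the most opposite were AgmNAT (-0.94), Hsp60D (-0.94) and Vps16B (-0.94). For otk the closest were drongo (0.94), Drp1, a dynamin of mitochondrial fission (0.94), trn, a leucine-rich repeat cell surface protein (0.93), Fmo-2 (0.93) and Antp, a homeotic gene (0.92), with CG13077 (-0.91), Pig1 (-0.90) and CG4704 (-0.90) at the other end. These correlations describe 18 group means that share arrays and array SD, and carry no test.

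The neighbouring pathway genes were described by 3 lists holding 74 genes, of which 44 were measured. In slit.robo against WT, 6 of 9 measured genes of the Abl and Ena list rose and none fell, with a median change of 0.30. In the list of actin assembly 9 of 22 rose and 2 fell (median 0.17), and in the semaphorin, plexin and Wnt receptor list 6 of 13 rose and 2 fell (0.10). Over all probe sets 21.2% rose and 35.9% fell, with a median of -0.08. The calls of the last list, 8 in all, depended on single arrays, at 4 without WT replicate 4 or slit.robo replicate 1 and 5 without WT replicate 5 or slit.robo replicate 3. Abl and Ena list genes also rose where ena was not called in the full fit. Of 9 genes, 7 were higher and none lower in slit and UR2. In robo/WT, comm/WT and UC2x 6 were higher and none lower. In FRM 5 were higher and 1 lower, and in robo and UR 3 and 1. More fell than rose in UC (4 and 1), robo12 (2 and 1) and URyf (2 and 0). Upward calls made up 15.8% of all probe sets in slit and 24.2% in UC2x. In slit.robo the summed intensity of neuron markers was 11441.6 to 12676.4 against 8922.4 to 9638.5 in WT, with 3 of 7 markers higher and 1 lower. Of 6 glia markers 1 was higher and 1 lower. The summed intensity of muscle markers was 80556 to 90694 against 65810 to 70877 in WT, with 4 of 5 markers higher. That of epidermis markers was 33614 to 39301 against 22130 to 25715, with 4 of 8 higher and 3 lower. Of 4 markers of proliferating cells 3 were lower and none higher (median -0.55), and all 5 maternal and germline markers were lower (-0.30). The part of these markers in the list counts was not tested.

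In slit against slit/WT, where ena was lower, 4 of 9 genes of the Abl and Ena list were lower and none higher (median -0.16), as were 4 of 13 in the semaphorin list (-0.14) and 7 of 22 in the actin list, where 1 was higher (-0.03). The median of all probe sets was 0.01, with 12.6% lower. Of the Abl and Ena list 2 were called without slit/WT replicate 2 or 3 or slit replicate 1 or 4. Such falls were not particular to the slit pair. In comm against comm/WT, where ena was 0.32 higher without passing, 4 of 9 Abl and Ena list genes were lower and none higher (-0.15). In robo against robo/WT, where ena differed by 0.03, 2 of 9 were lower and none higher (-0.16). There 5 of 13 were lower in the semaphorin list and 11 of 22 in the actin list, where 2 were higher.

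Among the partners of ena, Abl, the kinase that opposes it, rose in 5 of 17 groups, by at most 0.34 (FRM) and by 0.15 ± 0.06 in slit.robo, and 68% of all probe sets were called in at least as many groups. The profilin gene chic rose in 6 groups and fell in 2, and trio, a Rac activator, rose in 3. At least as many groups were called for 40.6% of all probe sets in the case of chic and 84.8% for trio. From each list the 2 genes called most often were also read, so their counts are a description of that choice. The gene dia, which encodes a formin that nucleates actin filaments, rose in 14 groups, a count that 5.59% of all probe sets reached, and by 0.85 ± 0.11 in slit.robo. The linker of actin and microtubules shot rose in all 17 groups, as many as 1.02% of probe sets, by 1.22 ± 0.08 in slit.robo, and was 0.48 ± 0.09 lower in slit than in slit/WT, as was ena.

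The kinases related to Pak and the receptor related to otk took other courses. Pak3 rose in 14 of 17 groups, including UC (0.65 ± 0.10) where Pak did not, and was lower in slit than in slit/WT (-0.42 ± 0.10) where Pak was higher. The third kinase of the family, mbt, fell in 11 groups and rose in none. A count of calls at least as high was reached by 5.59% of all probe sets for Pak3 and 18.7% for mbt. The gene otk2, a paralog that neighbours otk in the Release 6 plus ISO1 MT assembly, fell in 7 groups and rose in 1. As many calls or more were reached by 40.6% of all probe sets. Its level fell by 0.18 ± 0.07 in UC, and by 0.16 ± 0.06 in slit.robo where otk rose. In comm otk2 was 0.30 ± 0.07 higher than in comm/WT (adjusted p = 0.00093), where otk was lower. Among the other genes chosen for their count of calls, Sema1a, a transmembrane semaphorin, rose in 14 groups, nvy in 13 with a fall in 1, cno in 13 with a fall in 1 and Zasp66 in 16. As many calls or more were reached by 5.59% of all probe sets for Sema1a, nvy and cno, and by 2.07% for Zasp66. The genes dock, Rac1 and PlexA were not analysed here.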

How the data were processed

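Per the submitters' processing notes the authors made the deposited values with RMA (version not given in the sources used here). Deposited values are linear intensities, where log2 values had been planned for, so log2 was taken first. Of 14010 probe sets 44 Affymetrix controls were left out. All 78 arrays were fitted together with a mean for each of 18 groups in limma 3.58.1 (R 4.3.3; lmFit, contrasts.fit, eBayes; 60 residual degrees of freedom), with 17 contrasts against WT, 15 between related groups and 3 differences between mutant pairs. All tests were two-sided and were adjusted by Benjamini-Hochberg over all 13966 probe sets within a contrast and a threshold of 0.05. The fit was tested on simulated data.

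"Called", "rose" and "fell" mean an adjusted p below that threshold, and a group lies wholly above or below when no arrays overlap. A gene's probe set with the highest mean stands for it in the lists. Named genes were the 3 genes, 9 partners where measured, the 2 genes of each list called most often, and the 5 most and 3 least correlated with each gene. The 3 genes and the lists were chosen with earlier results of these data known, and one further list is not reported here. Same-numbered replicates did not deviate together (median r = 0.014 over 627 pairs of arrays, -0.0049 for other numbers), so replicate numbers were not taken as pairs. The number of arrays limits the precision. The settings varied were quantile normalization, a filter on dim probe sets, the groups in the fit, a replicate block, array weights, the array SD as a covariate, arrays left out singly or together, and a reference formed by the mean of all other groups. Gene names were updated through the RefSeq table. Plots came from matplotlib 3.10.9 under Python 3.11.15.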

Additional observations from a re-analysis of the deposited data

Results flagged for a closer look

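Relative to the range of their own group, single arrays stood far from the rest in 4 of 54 combinations of gene and group, where chance alone gives about 1 in 20. The ena level of robo/WT replicate 1 was 9.209, below the other arrays of its group, the nearest of which read 9.264. The Pak level of UC2x replicate 2 was 9.645, above the nearest at 9.344. The otk level of robo2 replicate 2 was 7.112, above the nearest at 7.047. In robo2 for otk and in robo/WT for ena the gap was smaller than the gene's SD within groups (0.191 and 0.189). The otk level of URyf replicate 2 was 6.393, below the nearest at 7.032, and this array is one of the 6 whose SD stood apart.

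The difference between a mutant group and its /WT group was itself unequal between mutants in 5 tests by limma. For ena the slit pair differed from the robo pair by -0.5557 (adjusted p = 0.035) and from the comm pair by -0.8458 (0.00056). For Pak the same differences were 0.6147 (0.015) and 0.6113 (0.013). For otk the slit pair differed from the robo pair by 0.5424 (0.041).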

How the results depend on the processing

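No call of ena or Pak changed with the replicate block, and otk lost 1 of its 10 calls against WT (UR), which left 9. The ena groups called against WT were 12 with array weights, 10 with the array SD as a covariate and 14 without the arrays that stand apart, Pak groups 7 with the array SD, and otk groups 6 when the fit held only the compared groups. With the array SD, otk had 4 related comparisons and 2 differences between pairs called, also 2 without the arrays that stand apart, and with quantile normalization 0 by limma (1 at an unadjusted p under 0.05). Against the mean of all other groups as reference, groups called higher and lower were 4 and 3 for ena, 7 and 4 for Pak and 6 and 5 for otk. There the sign turned in 10 of 17 groups for ena, 5 for Pak and 1 for otk, of which these were called on at least 1 side: ena in robo12 (-0.32) and UC (-0.30), and Pak in slit/WT (-0.0080), comm (-0.0077), robo2 (-0.23) and UC2x (-0.043). With the array SD, otk was higher in 0 groups and lower in 7, and of 35 comparisons the sign turned in 2 for ena, 3 for Pak and 7 for otk. Those called on at least 1 side were Pak in UC2x (-0.028) and in slit.robo against robo (-0.0026), and otk in slit.robo (-0.058) and UNC5 (-0.29). The cause was not tested.

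With each array left out, calls against WT ranged from 6 to 12 for ena, 11 to 13 for Pak and 8 to 10 for otk, related calls from 5 to 7, 6 to 8 and 7 to 7, and pair differences from 1 to 2, 1 to 2 and 0 to 2. List counts, an addition made after the data were seen, moved in slit.robo for the semaphorin list to 3 without dim probe sets, 4 with the array SD, 5 against the other groups and 4 with only the compared groups, and for the actin list to 7 against the other groups. In slit against slit/WT they moved to 1 (semaphorin list, without dim probe sets) and 2 (Abl and Ena list, without arrays that stand apart). With arrays left out singly they ranged in slit.robo from 5 to 6 (Abl and Ena), 4 to 7 (semaphorin) and 11 to 14 (actin), and in slit against slit/WT from 2 to 4, 3 to 4 and 6 to 8. The filter on dim probe sets left no value for otk, and with 1 probe set a gene no other probe set could be tried.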
